A study of Mus musculus with 6 samples.

Results

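The genes described here encode 10 proteins that hold the contractile apparatus of striated muscle together: Ttn, Neb, Actn2, Actn3, Myoz1, Myoz2, Csrp3, Ldb3, Myot and Klhl41. They were chosen by gene symbol, and every probe set that the platform annotation pairs with exactly 1 of them was read, which gave 18 of the 45101 probe sets on the array. Ttn was read by 6 probe sets, Ldb3 by 3, Myoz1 by 2 and each of the other 7 genes by 1. The brightest probe set of a gene over the 6 arrays stood for it in counts, where the 10 genes are set beside 13242 of the 18194 named genes, those that reached 7.95 log2 units, the median of all values, on at least 1 array. All 10 genes passed this filter, Myot only through its value at day 4.

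The cells were C2C12, a mouse skeletal myoblast line that stops dividing and fuses into myotubes once it is confluent and serum is lowered. Parental cells were profiled while growing in 10% fetal bovine serum, and then at day 0 (just after the switch to medium with 2% horse serum), day 2 and day 4. A further 2 arrays, both at day 0, came from cells stably transfected either with a hairpin vector against Rp58 (shRp58) or with a control that the labels call both a LacZ vector and a control hairpin; G418 selection of both lines, at 500 µg/ml, had lasted 2 weeks. Whether these lines were pools or clones is not stated in the labels. Each of the 6 groups held 1 array, so every difference below lies between lone arrays, has no replicate error and was not tested.

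In striated muscle, thin filaments of actin are anchored in the Z-disc, the boundary between neighbouring sarcomeres, where they are cross-linked by alpha-actinins. Titin (Ttn) spans from the Z-disc to the M-band in the middle of the sarcomere, and nebulin (Neb) runs along the thin filament. Around this frame sit adaptor proteins with LIM and PDZ domains, the calcineurin-binding myozenins, and Kelch proteins that steer ubiquitin ligases and protect nebulin. Many of these proteins are made only once myoblasts begin to differentiate.

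The deposited values are log2 intensities made by the authors with RMA, so a difference of 1 is 2-fold. In the time course the array medians over all probe sets were 8.26 to 8.27, whereas both stable-line arrays had 7.15, so levels were compared only within each of these sets. Values under 7.95 are called dim, and the sizes of differences that start or end there are not exact. That cutoff was the same for both sets. It lies below the time-course medians and above the stable-line medians. On the stable-line arrays it therefore also takes in values above the array's own median. Levels of different probe sets are not comparable, so genes are compared only by their differences. Zbtb18, the current symbol of Rp58, read 11.16 in shRp58 cells, against 11.69 in control-vector cells, a difference of -0.53 or 1.44-fold. In the time course it read 11.18 in growth medium and 11.88, 12.86 and 13.06 at days 0, 2 and 4. All 10 fixed markers of skeletal muscle cells were measured above 7.95 on every array but the growth-medium array, where 9 were. Of 11 measured cardiomyocyte markers, a list read because several scaffold genes are also heart genes, Myh6, Tbx20, Myl7 and Ryr2 stayed below 7.95 on all 6 arrays, and none of the other 7 was 2-fold apart in any comparison.

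Over the time course most scaffold genes stood higher with each step, and they did so at different times. At day 0, 7 of the 10 were at least 2-fold higher than in growth medium, where 2.91% of all genes kept were, and none was 2-fold lower. At day 2, 7 of 10 were at least 2-fold above day 0, where 2.67% of all genes were. At day 4, 9 of 10 were at least 2-fold above day 0, with Myoz1 the exception, where 3.83% of all genes were; the ninth, Myot, was kept only through that day 4 value. Between day 2 and day 4 only Actn2 and Myot were 2-fold apart, both higher at day 4, where 0.808% of all genes were. With values under 7.95 set to 7.95 these counts were 6 at day 0, where Csrp3 fell short, 7 at day 2, 8 at day 4, where Myot fell short, and 1, Actn2, between day 2 and day 4. The medians of the 10 differences were 1.53 for day 0 minus growth medium, 1.73 for day 2 minus day 0, 2.57 for day 4 minus day 0 and 0.47 for day 4 minus day 2. Over all genes kept these medians were 0.10, -0.01, -0.04 and -0.03. The comparisons that use the day 0 or the day 2 array share that array, so their differences are not independent.

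**Figure D1:**
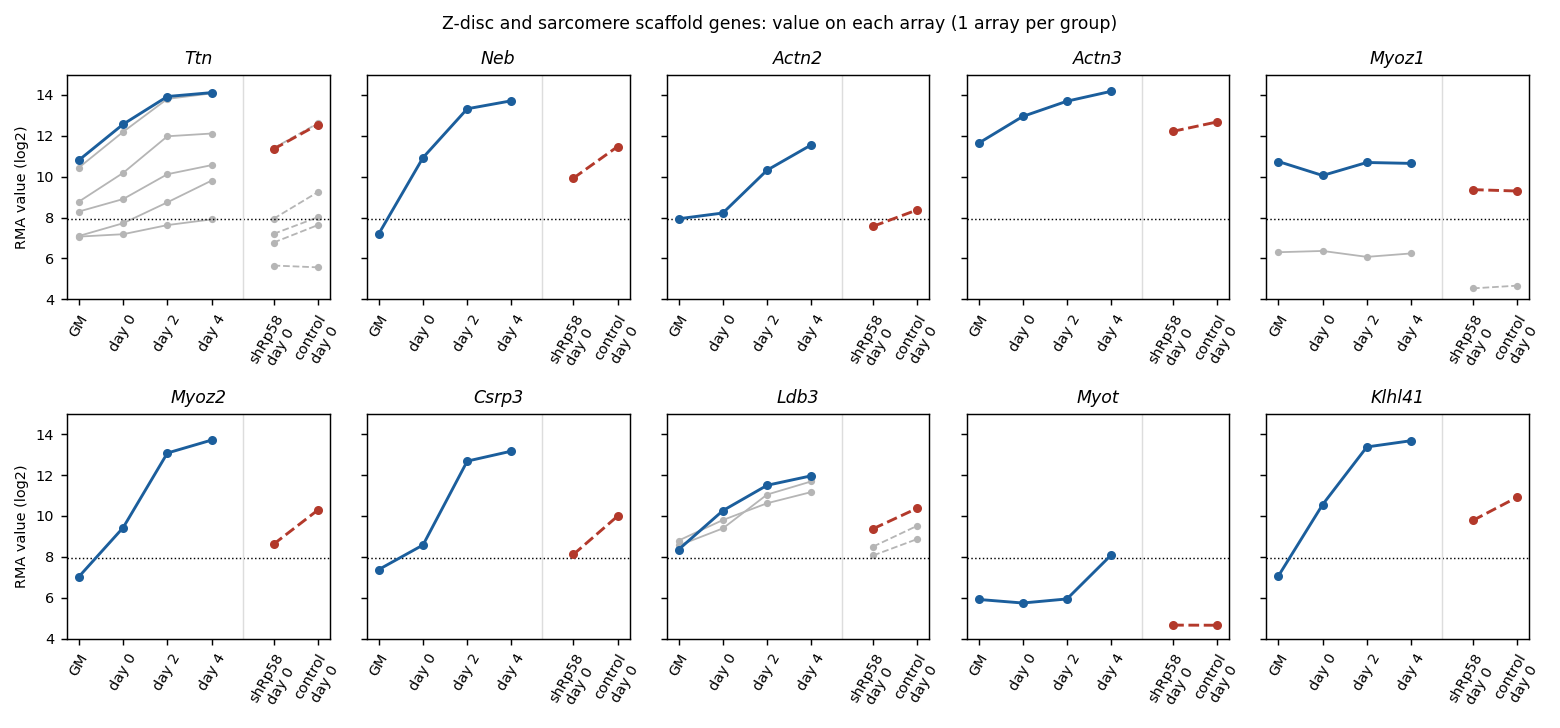
Value of each probe set (log2 RMA units, y axis) on the 4 time-course arrays (solid lines) and the 2 stable-line arrays (dashed lines), 1 panel per gene, with the probe set that stands for the gene in colour and its others in grey. The dotted line marks 7.95. Neb, Klhl41, Myoz2 and Csrp3 start below it in growth medium and end above 13 at day 4, and Myot crosses it only at day 4. The brighter Myoz1 probe set stays between 10.06 and 10.74 in the time course, and its other probe set stays below 7.95.

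The long filament proteins were among the first to stand higher. The brightest Ttn probe set read 10.81 in growth medium and 12.57, 13.92 and 14.11 at days 0, 2 and 4. Its day 4 value lay 3.30 above growth medium (9.87-fold), and 53.2% of that distance on the log2 scale had been covered by day 0 and a further 41.1% by day 2. Titin is the giant elastic protein that serves as the ruler of the sarcomere. In shRp58 cells this probe set read 11.35, against 12.54 in control-vector cells, a difference of -1.20 (2.29-fold).

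The 6 Ttn probe sets gave different sizes. Day 4 minus day 0 ran from 0.73 to 2.09, and day 0 minus growth medium from 0.12 to 1.76. The lowest values at both steps belonged to a probe set that stayed below 7.95 on all 6 arrays, and it differed by 0.09 between shRp58 and control-vector cells. The other 5 Ttn probe sets were lower in shRp58 cells, with differences of -0.82 to -1.30, and 3 of them passed 2-fold. A pair of dimmer Ttn probe sets, at 8.30 and 7.10 in growth medium, had covered only 26.9% and 23.0% of their distance to day 4 by day 0, less than the 3 brightest, which had covered 42.2% to 53.2%. Which Ttn transcripts each probe set reads was not analysed here.

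The RefSeq promoter window of Ttn on GRCm38.p6, 250 bases before to 50 bases after the start site at chr2:76982498-76982797 on the minus strand, is shown because titin is the largest of these proteins and its window holds a 10-letter motif that those of Klhl41, Myoz2 and Ldb3 hold too, and those of Csrp3 and Actn2 do not. Capitals here and in the windows further on mark every match, on either strand, to the motifs searched: the E-box CANNTG, bound by helix-loop-helix factors such as MyoD, with its forms CAGCTG and CATCTG, the longer Rp58 core ACATCTG, the MEF2 core CTANNNNTAG, the M-CAT motif CATTCC and the TATA box TATAAA. In the Ttn window the MEF2 core begins 166 bases before the start site, the E-box 138 bases before it, and the M-CAT motif at base 12 after it.
Ttn promoter window: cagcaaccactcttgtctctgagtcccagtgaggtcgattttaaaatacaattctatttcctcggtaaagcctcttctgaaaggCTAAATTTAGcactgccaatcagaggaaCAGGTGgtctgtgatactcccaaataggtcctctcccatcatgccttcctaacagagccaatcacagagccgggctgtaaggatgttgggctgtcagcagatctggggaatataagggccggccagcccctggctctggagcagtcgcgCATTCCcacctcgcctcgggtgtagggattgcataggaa

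Neb, which stabilises the thin filament, stood at 7.20 in growth medium and 10.93, 13.32 and 13.72 at days 0, 2 and 4. Day 0 was 3.73 above growth medium (13.3-fold), rank 3 from the top among the 13242 genes, and day 2 was 2.39 above day 0 (5.24-fold). As the growth-medium value was dim, the first of these sizes is not exact; with values under 7.95 set to 7.95 it was 2.99. In shRp58 cells Neb read 9.93, against 11.47 in control-vector cells, which is -1.55 or 2.92-fold and rank 21 from the bottom.

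Klhl41, a Kelch protein that binds nebulin and is known in patients with nemaline myopathy when it is lost, ran closely beside Neb. Its values were 7.06 in growth medium and 10.56, 13.38 and 13.68 at days 0, 2 and 4. The first step measured 3.49 (11.3-fold, rank 5 from the top) and the second 2.82 (7.07-fold). The growth-medium value was dim, and with values under 7.95 set to 7.95 the first step was 2.61, so which step was larger is not settled. By the distance over the 3 successive steps and the hairpin difference, Neb was the nearest of the other scaffold genes to Klhl41 (0.65 log2 units), and Klhl41 the nearest to Neb. Klhl41 read 9.78 in shRp58 cells, against 10.92 in control-vector cells, a difference of -1.13 (2.20-fold).

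The Klhl41 window, at chr2:69669870-69670169 on the plus strand, holds 4 E-boxes, the nearest to the start site being a CAGCTG that begins 127 bases before it, and a MEF2 core that begins 63 bases before it.
Klhl41 promoter window: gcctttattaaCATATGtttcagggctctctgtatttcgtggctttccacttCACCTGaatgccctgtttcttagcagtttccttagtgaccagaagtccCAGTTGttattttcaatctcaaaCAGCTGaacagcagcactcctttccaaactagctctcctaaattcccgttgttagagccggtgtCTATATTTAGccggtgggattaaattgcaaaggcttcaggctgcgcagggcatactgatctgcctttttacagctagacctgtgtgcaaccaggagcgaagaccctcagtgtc

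The alpha-actinins, which cross-link actin filaments of opposite polarity in the Z-disc, followed different courses. Actn3, the isoform of fast fibres, read 11.64 in growth medium and 12.95, 13.70 and 14.18 at days 0, 2 and 4. Its steps were 1.31, 0.75 and 0.48, so only the first reached 2-fold. Actn2, the isoform of all striated fibres and of heart, read 7.94 in growth medium and 8.22, 10.32 and 11.56 at days 0, 2 and 4. Its first step was 0.28, the second 2.10 (4.28-fold) and the third 1.24 (2.36-fold). Of the distance from growth medium to day 4, Actn3 had covered 51.6% by day 0 and Actn2 7.80%. Actn2 started just under 7.95 and was still close to it at day 0, so the size of its first step and this share are not exact. The non-muscle alpha-actinins Actn1 and Actn4 stood slightly lower at day 4 than at day 0, at -0.38 and -0.43.

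In the stable lines both muscle alpha-actinins read lower with the hairpin, and neither by 2-fold. Actn2 read 7.57 in shRp58 cells, against 8.38 in control-vector cells, a difference of -0.81. It was -0.43 when values under 7.95 were set to 7.95, though 7.57 lies above that array's median of 7.15. Actn3 read 12.22 in shRp58 cells, against 12.68 in control-vector cells, a difference of -0.46.

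Ldb3, also called ZASP or cypher, carries a PDZ domain that binds alpha-actinin and LIM domains that bind kinases. Its brightest probe set read 8.36 in growth medium and 10.26, 11.50 and 11.97 at days 0, 2 and 4. The steps were 1.90, 1.24 and 0.46, close to those of Ttn, which was its nearest neighbour among the scaffold genes at a distance of 0.38. The other 2 Ldb3 probe sets gave 0.84 and 1.004 for the first step and 1.66 and 0.82 for the second, so how the increase divides between these steps depends on the probe set. In shRp58 cells the brightest read 9.38, against 10.38 in control-vector cells. The difference of -1.01 lies at the edge of the 2-fold count, and the other 2 gave -1.02 and -0.81. Its 2 RefSeq windows overlap and share 1 MEF2 core.

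Myot, or myotilin, which binds alpha-actinin and filamin C, was the late exception. It read 5.92 in growth medium and 5.74, 5.94 and 8.09 at days 0, 2 and 4, so 98.9% of its distance was covered in the last step. Day 4 was 2.15 above day 2 (4.44-fold), rank 16 from the top among all genes. Only the day 4 value passed 7.95, and by little: with lower values set to 7.95 the difference was 0.14, so its size is not settled by these arrays. It read 4.66 in shRp58 cells and 4.65 in control-vector cells, both dim. The related Mypn, or myopalladin, stood 2.13 higher at day 2 than at day 0 and 2.94 higher at day 4 than at day 0, with dim values in growth medium and at day 0.

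Csrp3 and Myoz2 had the largest steps of the 10 genes at day 2. Csrp3 is the muscle LIM protein, a Z-disc and nuclear adaptor for which mutations cause cardiomyopathy. It read 7.38 in growth medium and 8.58, 12.69 and 13.17 at days 0, 2 and 4. The second step was 4.11 (17.2-fold), rank 2 of 13242, and made up 70.9% of the distance from growth medium to day 4. Its first step, 1.20, started from a dim value and was 0.63 with values under 7.95 set to 7.95. Its paralogues Csrp1 and Csrp2 went the other way at day 2 against day 0, at -1.07 and -1.20.

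Myoz2, calsarcin-1, binds calcineurin at the Z-disc and is known from slow fibres and heart. It read 7.03 in growth medium and 9.43, 13.08 and 13.72 at days 0, 2 and 4. The first step was 2.40 (5.28-fold, from a dim value) and the second 3.65 (12.6-fold, rank 4). Its nearest scaffold gene by that distance was Csrp3, at 1.31.

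Both genes were also furthest down with the hairpin. Csrp3 read 8.12 in shRp58 cells, against 10.00 in control-vector cells, a difference of -1.88 (3.68-fold) and rank 4 from the bottom of all genes. Myoz2 read 8.62 in shRp58 cells, against 10.29 in control-vector cells, a difference of -1.67 (3.18-fold) and rank 13 from the bottom.

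The Myoz2 and Csrp3 windows are shown because these genes differed most with the hairpin. The Myoz2 window lies at chr3:123034938-123035237 on the minus strand. It holds a MEF2 core that begins 33 bases before the start site and 2 E-boxes, at 22 and 12 bases before it, the second being a CAGCTG. Csrp3 has 2 RefSeq windows, and the one shown lies at chr7:48848002-48848301 on the minus strand, with 5 E-boxes and no MEF2 core.
Myoz2 promoter window: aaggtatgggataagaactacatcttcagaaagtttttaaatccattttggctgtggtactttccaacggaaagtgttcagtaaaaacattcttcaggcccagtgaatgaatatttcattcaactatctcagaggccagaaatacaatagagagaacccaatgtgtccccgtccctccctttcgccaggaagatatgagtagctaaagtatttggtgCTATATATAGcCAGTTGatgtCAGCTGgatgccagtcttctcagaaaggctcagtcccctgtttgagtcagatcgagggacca
Csrp3 promoter window: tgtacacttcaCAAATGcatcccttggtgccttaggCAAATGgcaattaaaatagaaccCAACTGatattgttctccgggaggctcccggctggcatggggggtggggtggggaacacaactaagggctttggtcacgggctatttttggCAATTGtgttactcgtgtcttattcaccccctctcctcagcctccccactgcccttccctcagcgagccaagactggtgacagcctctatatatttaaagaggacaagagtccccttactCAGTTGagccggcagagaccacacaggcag

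Myoz1, calsarcin-2, the myozenin of fast fibres, did not share this course. Its brighter probe set read 10.74 in growth medium and 10.06, 10.70 and 10.65 at days 0, 2 and 4. Day 0 was thus -0.68 against growth medium, and day 4 lay within 0.09 of growth medium. It read 9.37 in shRp58 cells and 9.30 in control-vector cells, a difference of 0.07. The other Myoz1 probe set stayed between 4.53 and 6.37 on the 6 arrays, below 7.95 throughout. Neither probe set was 2-fold apart in any of the 5 comparisons, while Myoz3, the third myozenin, differed by 0.13 at day 4 against day 0.

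**Figure D2:**
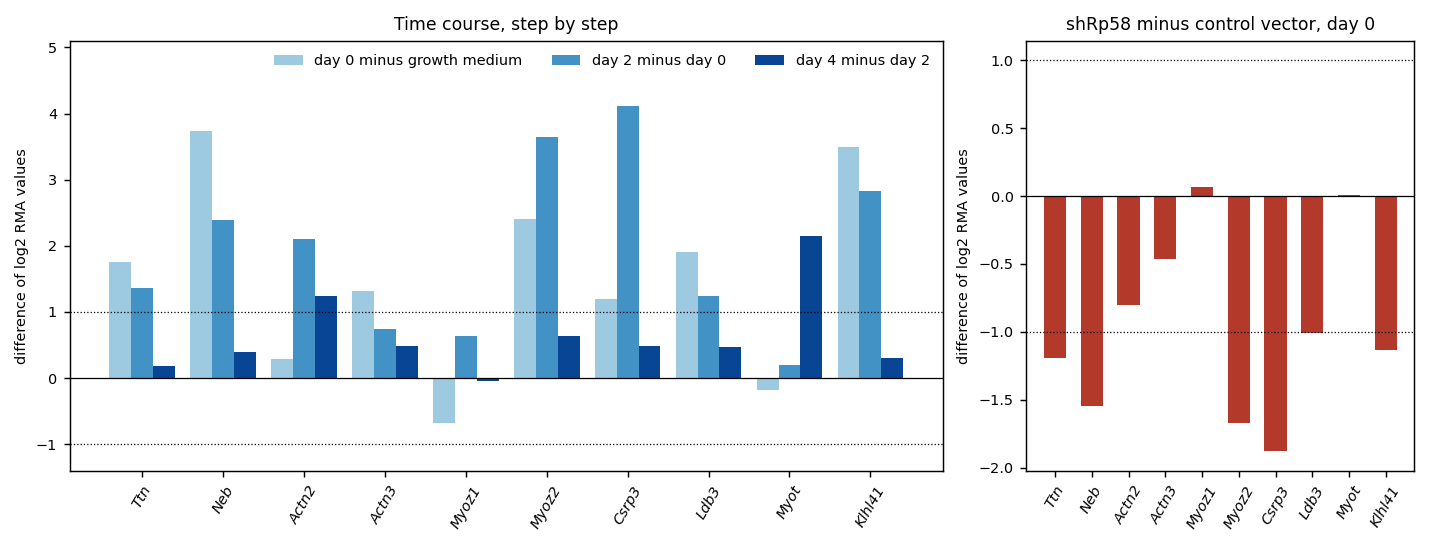
Differences of log2 RMA values for the probe set that stands for each gene: the 3 successive steps of the time course (left) and shRp58 minus control vector at day 0 (right), with dotted lines at 2-fold. Neb and Klhl41 have their tallest bar at the first step, Csrp3, Myoz2 and Actn2 at the second and Myot at the third, and Csrp3 reaches -1.88 on the right; with values under 7.95 set to 7.95 the first bar of Klhl41 would be 2.61, below its second of 2.82, and the third of Myot 0.14.

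Across the promoter windows, 6 of the 10 genes had an entry in the RefSeq table, with 8 windows among them. The E-box was in 6 of the 8 windows, and in 72.3% of all 32851 windows in the table. CAGCTG, which is also counted as an E-box, was in the windows of Klhl41 and Myoz2, and in 16.3% of all windows. The MEF2 core was in 5 of the 8 windows, those of Ttn, Klhl41, Myoz2 and both of Ldb3, and in 3.69% of all windows. M-CAT was in the Ttn window, and in 14.7% of all. CATCTG was in none of the 8 windows and in 17.2% of all, ACATCTG in none and in 4.43% of all, and TATAAA in none and in 13.6% of all. These are matches of letters in a 300-base window and do not show binding.

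The hairpin comparison asks which genes differ between shRp58 and control-vector cells at the same day. At least 2-fold lower values in shRp58 cells were found for 6 of the 10, Csrp3, Myoz2, Neb, Ttn, Klhl41 and Ldb3, where 0.619% of all genes kept had them, and none was higher by 2-fold. Actn2 and Actn3 were lower by less than 2-fold, and Myoz1 and Myot differed by 0.07 and 0.01, with signs that turned when probe sets were averaged for Myoz1 and under quantile or loess scaling for Myot. The median of the 10 was -1.07, and that of all genes -0.01. Of all 18 probe sets, 15 read lower in shRp58 cells, 9 of them by at least 2-fold, and probe sets of 1 gene share its transcripts. The share over all probe sets on the array was not counted, so these probe set counts have no background beside them.

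The hairpin difference was set beside each of the 4 time-course differences across the genes. Across the 10 genes, day 2 minus day 0 and shRp58 minus control vector, which share no array, had Pearson r = -0.89 and Spearman rho = -0.90. Without Myoz1 and Myot, left out after their values were seen, these were -0.85 and -0.83 over 8 genes. Against day 0 minus growth medium r was -0.71 and rho -0.64 over 10 genes, and r was -0.35 and rho -0.29 without that pair. Against day 4 minus day 0 r was -0.73 and rho -0.71, and against day 4 minus day 2 r was 0.32 and rho -0.04, over 10 genes. Without that pair r was -0.74 and rho -0.64 for the former, and r was 0.23 and rho 0.02 for the latter. None of these was computed over all genes kept, so the relation is not shown to be particular to the scaffold genes. Each of these figures describes 10 or 8 genes read on the 2 time-course arrays of its comparison and the 2 stable-line arrays, and genes are not replicates.

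**Figure D3:**
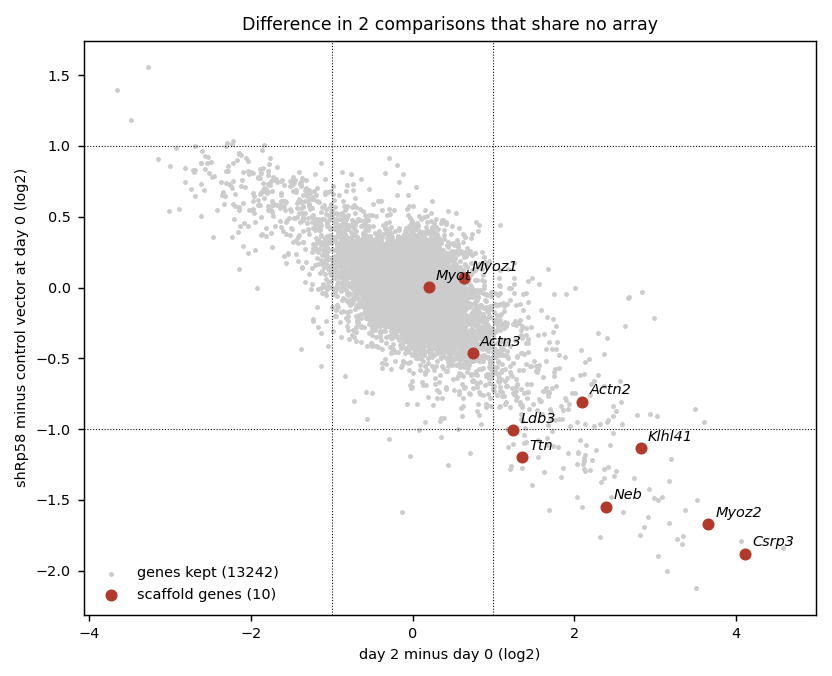
Each point is a gene, with day 2 minus day 0 on the x axis and shRp58 minus control vector at day 0 on the y axis, both as differences of log2 RMA values; red points are the 10 scaffold genes, grey points the 13242 genes kept, and dotted lines 2-fold. Csrp3 and Myoz2 lie furthest to the lower right, at 4.11 and -1.88 and at 3.65 and -1.67, and Myot and Myoz1 near 0 on the y axis.

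Of the 3 successive steps, markers of dividing cells differed most at day 2 against day 0. At day 0 against growth medium none of the 7 measured was 2-fold apart, with a median of -0.27. All 7, among them Mki67 and Top2a, were at least 2-fold lower at day 2 than at day 0, where 2.96% of all genes were. At day 4 against day 2 the median was -0.58, and 1 of the 7 was at least 2-fold lower, where 0.808% of all genes kept were. All 7 were higher in shRp58 cells than in control-vector cells, none of them by 2-fold. Their median was 0.86, against -0.01 over all genes kept. Their summed intensity on the log2 scale was 15.30 in growth medium and 15.07, 12.91 and 12.25 at days 0, 2 and 4, and it was 14.09 in shRp58 cells, against 13.22 in control-vector cells. The 10 skeletal muscle markers summed to 14.97, 16.22, 17.20 and 17.45 over the same 4 time-course arrays, and to 15.68 in shRp58 cells, against 16.33 in control-vector cells. Such a sum follows the brightest genes, and the 10 did not all run one way. At day 0, 6 were at least 2-fold higher than in growth medium, where 2.91% of all genes kept were. At day 2, 5 were at least 2-fold higher than at day 0, where 2.67% of all genes kept were. Myod1 (-0.16), Cdh15 (-0.52) and Myf5 (-0.87) were below 0 at that step. At day 4, 6 were at least 2-fold higher than at day 0, where 3.83% of all genes kept were. Myf5 was at least 2-fold lower (-1.29), where 5.66% of all genes kept were. In shRp58 against control-vector cells all 10 were below 0, where the median of all genes kept was -0.01. Of these 10, 4 were at least 2-fold lower, where 0.619% of all genes kept were. In these bulk samples a larger share of differentiated cells and more RNA of a gene in each cell cannot be told apart, and the part of either in the differences above was not tested. Smooth muscle markers summed to 14.75, 14.39, 14.88 and 14.86 over the time course, and to 13.69 in shRp58 cells, against 14.13 in control-vector cells, with Myh11 dim on all 6 arrays. That sum was mostly Acta2, while Tagln (-1.94) and Cnn1 (-1.51) were over 2-fold lower at day 0 than in growth medium, and Tagln stood 1.10 higher at day 4 than at day 0. Fibroblast and adipocyte markers summed to 11.89, 13.09, 13.81 and 13.10 over the time course, and to 11.78 in shRp58 cells, against 12.56 in control-vector cells, with Thy1, Adipoq and Cidec dim on all 6 arrays. Lpl made up the largest part of that sum on every array but day 4. The list did not run one way: at day 4 against day 0 Col1a1 and Dpt were each 1.01 higher, while Lpl (-0.63) and Pdgfra (-0.12) were lower. Reserve and satellite cell markers summed to 12.44, 12.55, 12.40 and 12.53, and to 11.39 in shRp58 cells, against 11.55 in control-vector cells. That flat sum hid markers that ran in opposite directions. At day 4 against day 0 Spry1 (1.63) and Cd34 (0.70) were higher, while Myf5 (-1.29), Sdc4 (-0.68) and Pax7 (-0.35) were lower, and Calcr was dim on all 6 arrays. Of 6 leukocyte and endothelial markers, 5 were dim on every array, all but Cd14. The part of these cell types in the differences above was not tested.

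Other proteins of the same structures, or found near them, were read from lists whose names are loose. Of 21 other Z-disc proteins kept, from 22 listed, 12 were at least 2-fold higher at day 4 than at day 0, where 3.83% of all genes kept were, and none was lower, with a median of 1.15. Ankrd23 (3.86) and Ankrd2 (3.14), ankyrin repeat proteins that bind titin, were furthest up, while the actin-capping subunit Capzb (-0.43) and the chaperone partner Bag3 (-0.28) were lowest. All 21 were below 0 in shRp58 against control-vector cells, with a median of -0.47, against -0.01 over all genes kept. Of the 21, 3 were at least 2-fold lower, Ankrd2 (-1.75), Ankrd23 (-1.21) and Nrap (-1.08), where 0.619% of all genes kept were. Nrap is named because the count is small. Ankrd23 read 7.77 in shRp58 cells, below 7.95, so the size of its difference is not exact. Capza2 and Capzb, at -0.08 and -0.04, were nearest to 0.

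A list of M-band and titin-associated proteins also held other sarcomere factors, such as the myosin chaperone Unc45b. Of its 12 genes kept, from 15 listed, 9 were at least 2-fold higher at day 4 than at day 0. Over all genes kept the share was 3.83%, and the median of the 12 was 2.62. Myom1, or myomesin, which cross-links thick filaments, stood 3.99 higher, and the ubiquitin ligase Trim63, also called MuRF1, stood 3.52 higher. Fhl2 (-0.17) and Cmya5 (0.10) were lowest. In shRp58 cells 5 of the 12 were at least 2-fold lower than in control-vector cells, against 0.619% of all genes kept. Myom1 (-1.5003) and Unc45b (-1.48) were furthest down, and Cmya5, dim in both lines, was at 0.16. Among those 5, Unc45b (7.62), Trim63 (7.87) and Myom3 (7.28) read below 7.95 in shRp58 cells. The sizes of their differences are therefore not exact, and the count rests partly on dim values.

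Among 7 Kelch proteins and leiomodins kept, from 10 listed, 3 were at least 2-fold higher at day 4 than at day 0, against 3.83% of all genes kept, the thin-filament nucleators Lmod2 (4.06) and Lmod3 (3.67) and the Kelch protein Klhl40, which stabilises Lmod3 and nebulin. Lmod2 and Lmod3 were also -1.77 and -1.55 in shRp58 against control-vector cells. Cul3, the ligase scaffold that Kelch proteins bind, differed by 0.07 at day 4 against day 0 and by 0.05 with the hairpin, and Kbtbd13 by 0.36 and 0.00.

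Relatives of the scaffold genes and other actin-associated adaptors, most of them used widely outside striated muscle, were mostly lower at day 4 than at day 0. Of 14 kept, from 15 listed, 11 lay below 0, and the median of the 14 was -0.45, against -0.04 over all genes kept. Of the 11, 4 were at least 2-fold lower, where 5.66% of all genes kept were, and none of the 14 was 2-fold higher. After quantile or loess scaling 3 were at least 2-fold lower. Lasp1 (-1.43), a nebulin relative of non-muscle cells, and Csrp2 (-1.23) were lowest, and Pdlim7 (0.84) and Palld (0.60) highest. With the hairpin none of the 14 was 2-fold apart in either direction, with a median of -0.05 and a span from -0.41 for Palld and Pdlim7 to 0.41 for Csrp2. Nebl, the nebulin-related protein of heart, differed by -0.22 at day 4 against day 0 and by 0.30 with the hairpin. Its values at day 4 and in both stable lines were under 7.95, so these sizes are not exact.

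**Figure D4:**
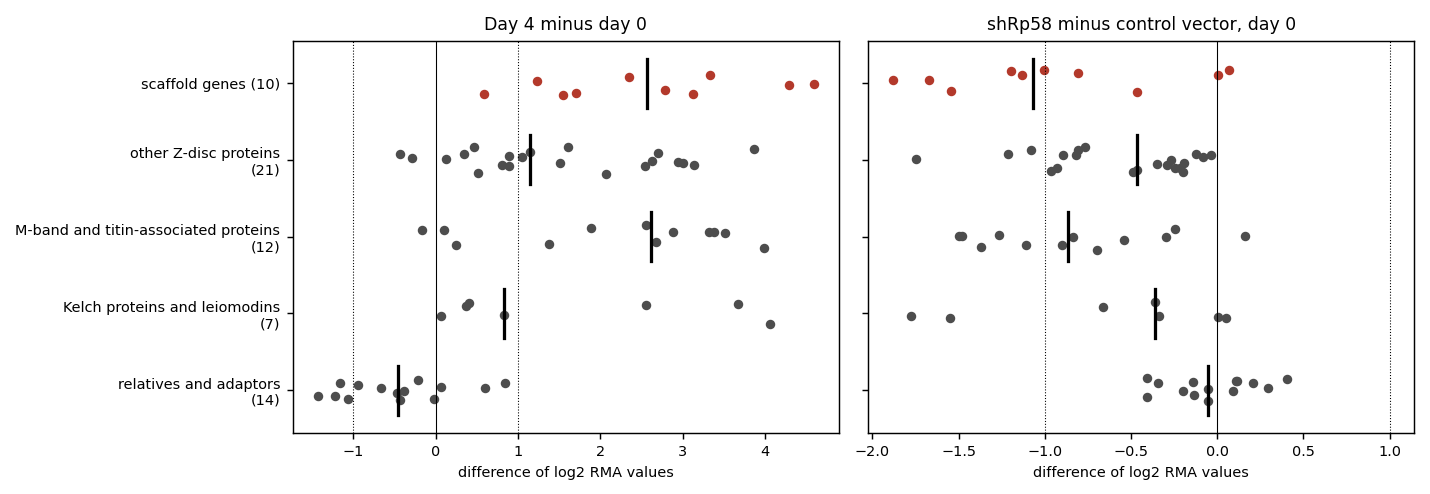
Difference of log2 RMA values for each kept gene (points) of the 10 scaffold genes and of the 4 related lists, for day 4 minus day 0 (left) and shRp58 minus control vector at day 0 (right); the vertical bar is the list's median, and dotted lines mark 2-fold. On the left the medians are 2.57 for the scaffold genes, 2.62 for the M-band list and -0.45 for the list of relatives and adaptors, and on the right the scaffold genes are at -1.07 and that list at -0.05.

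The genes outside the 10 whose course lay nearest to the median course of the scaffold genes, by distance over the 3 successive steps and the hairpin difference on 4 and 2 arrays, were Tecrl (0.26), Gadd45a (0.38), Cobl (0.41), Tmem38a (0.43) and Dclk1 (0.48). The scaffold medians were 1.53, 1.73 and 0.47 over the steps and -1.07 with the hairpin, and Tecrl had 1.33, 1.74, 0.63 and -1.12. Of the 10 themselves, Ttn (0.53) and Ldb3 (0.62) lay nearest to that median course and Myot (3.04) and Myoz1 (2.77) furthest from it.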

How the data were processed

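RNA from 6 C2C12 cultures was hybridised, as 10 ug of cRNA, to Affymetrix mouse whole-genome arrays. The authors deposited log2 values from the RMA algorithm, per the design text; its software, version and the set of arrays it was run on are not named there. No further normalization was applied. The platform annotation gave 1 gene for 34958 of 45101 probe sets, several for 932 and none for 9211. Entrez IDs matched the RefSeq table of GRCm38.p6 for 34754, used for names only, and 0 symbols were updated. The promoter windows come from RefSeq's GRCm38.p6 table, which holds 32851.

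The difference of log2 values between lone arrays was taken for 5 comparisons, and genes at least 2-fold apart were counted over 13242 genes. With 1 array a group there is no p-value, and precision is limited by their number. Named list genes are the 2 largest and 2 smallest differences of each list at day 4 against day 0 and with the hairpin; other genes were named after their values were seen. The 10 genes and the lists were chosen with earlier results of these data known. Likeness is the Euclidean distance over 4 differences. Alternatives covered scaling, the filter, the probe set that stands for a gene, dim values and the fold. Python 3.11.15 with pandas 2.3.3, and limma 3.58.1 in R 4.3.3 for cyclic loess, were used, and the counting was tested on simulated data.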

Additional observations from a re-analysis of the deposited data

How the results depend on the processing

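No paired analysis was possible because each group held 1 array. Counts of scaffold genes at least 2-fold apart at day 2 and day 4 against day 0 stayed within 1.5 times of the reported counts under every alternative run, and so did the counts for day 0 against growth medium and for the hairpin at every setting but 4-fold, where they were 3 and 0. The count of 2 for day 4 against day 2 was 1 with quantile normalization over the 6 arrays, with the filter set 1 log2 unit higher, with the filter on the arrays compared, with dim values set to the median and at 4-fold; under the first 4 of these Myot was no longer kept or fell short of 2-fold. The median for day 2 against day 0 was 2.13 with quantile normalization over the 6 arrays and 2.10 with either stricter filter, as Myot was no longer counted. The other 100 values of counts and medians moved less. A difference or median was taken as moved when it changed by at least the robust standard deviation of all genes' differences, as there are no replicates. The hairpin count of 6 was 5 with quantile or loess normalization, where Ldb3 fell short of 2-fold, and 4 with the mean of probe sets. Of the single-gene differences, 338 moved by less than that, 12 moved by more and 0 that were past 2-fold changed sign. The near-zero differences of Myoz1 for day 4 against day 2 and with the hairpin, and of Myot with the hairpin, changed sign among alternatives. Among all genes 2-fold apart at day 0 against growth medium, 90.2% were higher, and 79.4% after quantile normalization within each set, which moved the median of all genes to -0.03. Among the probe sets that stood for genes, dim signal limits the growth-medium values of Neb, Klhl41, Myoz2 and Csrp3. It also limits the growth-medium and shRp58 values of Actn2 and all Myot values but that at day 4.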
